A study of Danio rerio with 12 samples.

Results

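The 7 genes klf9, fkbp5, tsc22d3, sgk1, cebpd, cebpb and klf11a, all linked to glucocorticoid signalling, were followed in the zebrafish pineal gland. Their probe sets were those to which the platform annotation gives exactly 1 symbol among these names. This found 8 probe sets, 1 for each gene and 2 for cebpd, of 15502 probe sets that are not array controls. The 7 are among 8793 genes that the annotation names this way. They were selected on their differences between light and dark in these same arrays, together with their known roles, so those differences are given as a description, without a test.

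Glucocorticoid hormones, cortisol in fish, act through the glucocorticoid receptor, which waits in the cytoplasm in a complex with HSP90 and its co-chaperones and moves to the nucleus when it binds hormone. There it binds DNA and raises the transcription of a set of genes that recurs in many vertebrate tissues. The gene klf9, of a Krüppel-like zinc finger factor, is a target of the receptor in fish and mammals, and in mammals it is also linked to the circadian clock. The immunophilin gene fkbp5 is another standard target, and its protein lowers the hormone affinity of the receptor in a feedback loop. All 7 genes also answer to signals other than glucocorticoids, and no hormone was measured here.

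The RNA came from adult fish, males and females of 0.5 to 1.5 years, of the line Tg(aanat2:EGFP)Y8, in which the regulatory regions of aanat2 drive a green fluorescent protein in the pineal gland, so that the gland could be seen at dissection. All fish carried the transgene, were raised under cycles of 12 h of light and 12 h of darkness at 28 °C, and had been moved to constant darkness at the end of the day before sampling. Sampling ran every 4 h from CT2 to CT22, where CT is circadian time in hours from subjective dawn. For each time there was 1 pool of 12 glands from fish left in darkness and 1 pool of 12 from fish that had been lit for 1 h, at 12 W/m2, up to the moment of sampling. Each of the 12 pools was hybridised to 1 array, so a time and treatment has no replicate of its own. CT2, CT6 and CT10 fall in the subjective day, and CT14, CT18 and CT22 in the subjective night.

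The values are MAS5 signals on a linear scale in arbitrary units. The levels of 1 probe set can be compared between arrays, and those of different probe sets cannot. Differences are on the scale of log2(signal + 13), which understates the change of weak probe sets. Of the 8 probe sets 7 passed the filter on mean level, at least 1 for each gene. The other probe set of cebpd lay between 15.0 and 38.6 in the dark and between 0.908 and 60.7 in light, and was not tested. Of 12 pineal markers fixed for this check, 7 had a kept probe set; exorh, the pineal opsin gene, lay between 720.2 and 2081, and aanat2, whose enzyme sets the melatonin rhythm, between 586 and 4681.

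The arrays do not differ by light alone. Bacterial and phage transcripts spiked into the hybridisation mix (18 probe sets) had a mean log2 level of 9.58 to 9.83 on the dark arrays of CT2 to CT18 and of 10.30 to 11.20 on the 6 light arrays and the dark CT22 array. The labels name no batch. Only at CT22 do light and dark share a class, so at the other 5 times class and light cannot be told apart, and the CT22 difference is given beside each of the 7 genes. The mean light differences of the other genes below carry the same limit. Markers of neighbouring tissue differed too. The 4 kept muscle markers of 13 were all higher in light, with a summed signal of 219 to 413 in the dark and 466 to 993 in light. Of 15 skin markers 12 were kept and 11 were higher in light on average (summed signal 787 to 6247 in the dark and 1634 to 9644 in light). The summed skin signal was higher in light at CT10 and CT18 (787 in the dark and 3261 in light at CT18). At CT2, CT6, CT14 and CT22 it was lower in light. The 7 kept leukocyte markers of 10 were all higher in light on average (2184 to 4956 and 2421 to 6580.1), though their summed signal was lower in light at CT2 and CT14. The CT22 pair differed in tissue markers as well. Brain neuron markers deviated from their mean over the 12 arrays by -0.21 log2 in the dark and 0.67 in light. Oligodendrocyte markers were at -0.21 and 0.46, pineal markers at 0.16 and -0.31, and skin markers at -0.26 and -0.35. The part of these tissues in the differences below, those of CT22 included, was not tested. In pooled glands, fewer cells of a type and less RNA per cell cannot be told apart.

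Klf9 and fkbp5 were higher in light at all 6 times and were the only ones of the 7 genes whose mean difference exceeded 1 log2 unit. With klf11a, 3 of the 7 genes were higher at all 6 times, which held for 5.97% of the 9301 kept probe sets. For klf9, the dark signals from CT2 to CT22, in order of time, were 206, 165, 732, 757, 972 and 611. The light arrays gave 1228, 865, 1580.45, 2908, 2056 and 1713 in the same order. Every light array was above the dark array of its time, and the groups overlapped only in that the lowest light value, at CT6, lay below the highest dark value, at CT18. The mean of the 6 within-time differences was 1.73 ± 0.61 log2 (SD, n = 6), a 3.31-fold difference. It ran from 2.10-fold at CT18 to 5.67-fold at CT2, and at CT22 it was 2.77-fold (1.47 log2).

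For fkbp5 the dark signals were 329, 373, 780.2, 826, 757 and 964 from CT2 to CT22. The light signals were 1540.5, 1221, 1354, 2149.6, 1888 and 1557. All light arrays were above all dark arrays, a separation in this direction that 0.753% of the 9301 kept probe sets showed. The mean difference was 1.33 ± 0.56 log2 (SD, n = 6), or 2.52-fold. Its smallest value was that of CT22, 1.61-fold (0.68 log2), where the dark array held the highest dark level, and its largest was 4.54-fold at CT2. With spike-in level beside the time block the fkbp5 difference was 1.21 log2, against 1.75 for klf9. With spike-in class beside light and a 24 h cosine in the model the fkbp5 difference was 0.65 log2, against 1.33 for klf9. In this class fit, here and for the other genes, only the dark array of CT22 separates class from light.

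**Figure D1:**
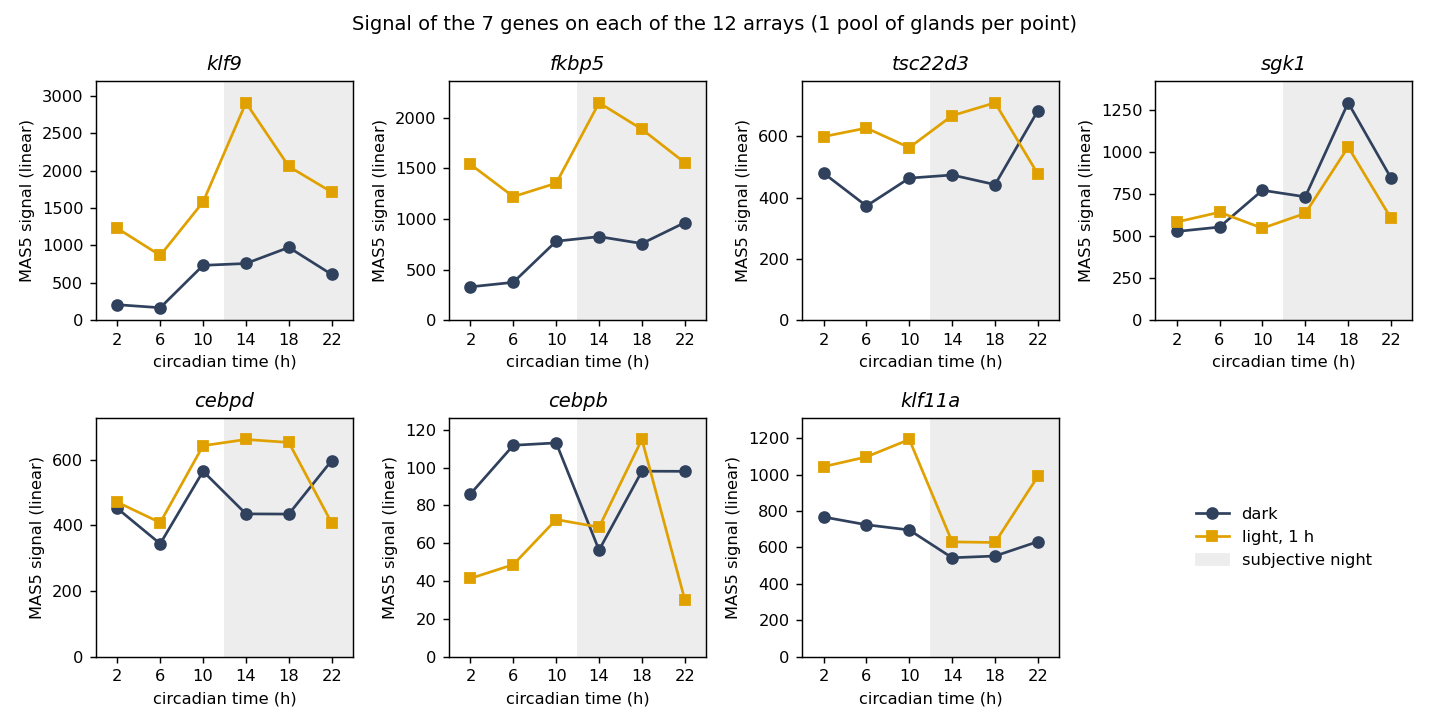
Signal (linear MAS5 units, vertical axis from 0) of each of the 7 genes against circadian time, with the subjective night shaded; each point is 1 array of 12 pooled glands, dark (circles) or after 1 h of light (squares). Klf9 and fkbp5 were higher in light at every time, whereas the lines of tsc22d3, cebpd, sgk1 and cebpb cross.

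Klf11a, of another Krüppel-like factor, known in mammals as a factor induced by TGF-beta, was the third gene that was higher in light at all 6 times. Its dark signals were 767, 725, 696, 543, 553 and 632 from CT2 to CT22. Its light signals were 1044, 1097, 1193, 631, 627 and 990.5. Both treatments were lowest at CT14 and CT18, and there the light and dark arrays lay nearest to each other (0.21 and 0.18 log2). The mean difference was 0.47 ± 0.24 log2 (SD, n = 6), or 1.38-fold, and that of CT22 was 0.64.

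The light differences of the other 4 genes did not keep 1 sign over the 6 times. Tsc22d3, the gene of GILZ, a leucine zipper protein that carries part of the anti-inflammatory action of glucocorticoids in mammals, had dark signals of 373 to 684 (median 469) and light signals of 477 to 709 (median 613). Light was above dark at 5 of 6 times, by 0.27 to 0.73 log2, and below it at CT22, with a difference of -0.51. The mean was 0.33 ± 0.45 log2 (SD, n = 6), less than the spread between times. On the 5 dark arrays of the lower spike-in class tsc22d3 did not exceed 479.7, whereas the dark array of CT22, of the higher class, was at 684 and above 5 of the 6 light arrays. With spike-in level beside the time block the difference turned to -0.12, and with spike-in class to -0.21.

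Cebpd, a bZIP factor of the acute-phase and stress responses in mammals, showed a like arrangement. Its kept probe set gave 344 to 597 in the dark (median 443) and 407 to 661 in light (median 557). Light was higher by 0.06 to 0.59 log2 at 5 times and lower at CT22 (-0.54), with a mean of 0.18 ± 0.41 (SD, n = 6). The highest dark signal was again that of CT22, at 597, against at most 565 on the other 5 dark arrays. The difference turned to -0.35 with spike-in level and to -0.32 with spike-in class in the model.

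**Figure D2:**
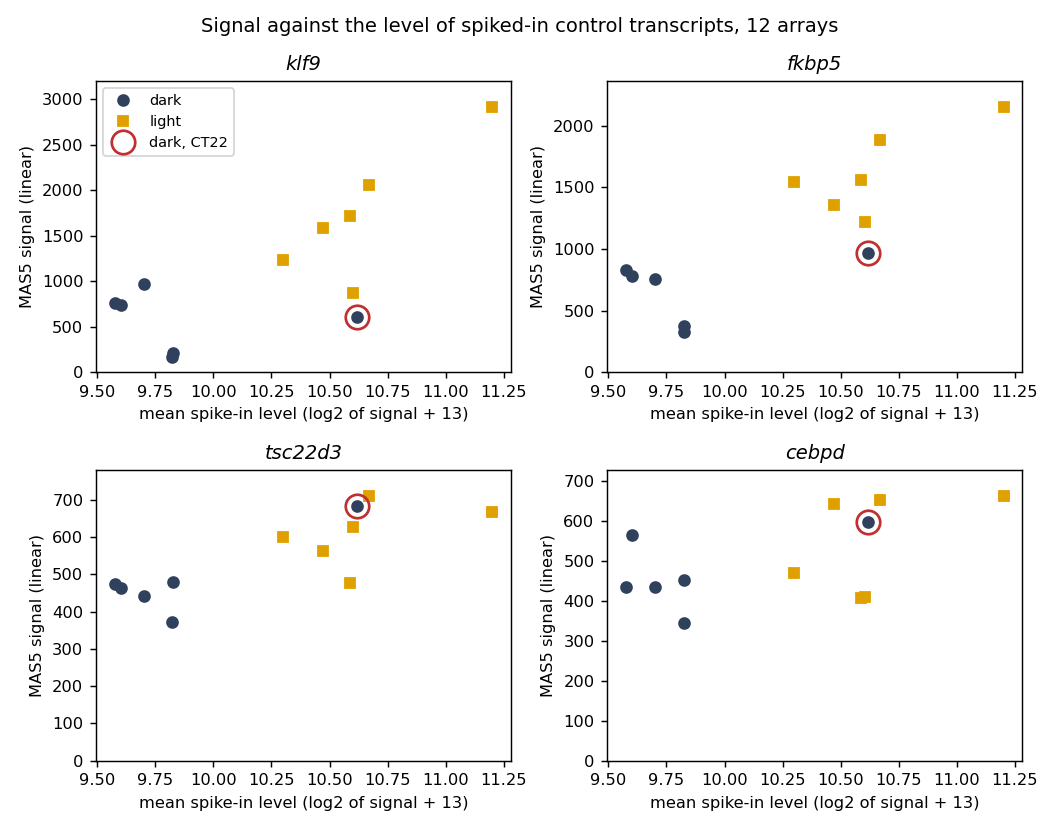
Signal of 4 genes (linear MAS5 units, from 0) against the mean level of the 18 spiked-in control probe sets (log2 of signal + 13) on the 12 arrays; circles are dark, squares are light, and the ring marks the dark array of CT22. For klf9 and fkbp5 the ringed array lies below all 6 light arrays, whereas for tsc22d3 it lies above 5 of them and for cebpd above 3.

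Sgk1, a kinase gene that raises sodium transport in response to corticosteroids in mammals, was lower in light at 4 of 6 times. Its dark signals were 528, 555, 774, 735, 1296 and 847 from CT2 to CT22, and its light signals 585, 643, 548, 637, 1032 and 607. Light was a little higher at CT2 and CT6 (0.14 and 0.21 log2) and lower from CT10 on, with differences of -0.49 to -0.20. The mean was -0.19 ± 0.30 log2 (SD, n = 6) and the CT22 value -0.47. Both treatments had their highest level at CT18. Brain neuron markers (10 kept of 13) deviated by 1.16 log2 on the dark array of that time and by -0.19 on the light array, and their part in the sgk1 level was not tested.

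Cebpb, the C/EBP-beta gene, was weak, with dark signals of 56.4 to 113 (median 98.1) and light signals of 30.2 to 115 (median 58.6), and its mean over the 12 arrays was at the 47.0th percentile of the probe sets. Light was lower at CT2, CT6, CT10 and CT22, with differences of -1.36 to -0.56 log2, and higher at CT14 and CT18, by 0.23 and 0.20. The mean was -0.56 ± 0.66 (SD, n = 6). At CT22 the cebpb difference was -1.36. With spike-in level in the model it was -1.37, and with spike-in class -0.82. In all, 2 of the 7 kept probe sets, those of klf9 and fkbp5, had been called higher by limma in light against dark and none lower, where 1.58% and 0.731% of all kept probe sets were called. These calls belong to the contrast with which the genes were chosen.

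**Figure D3:**
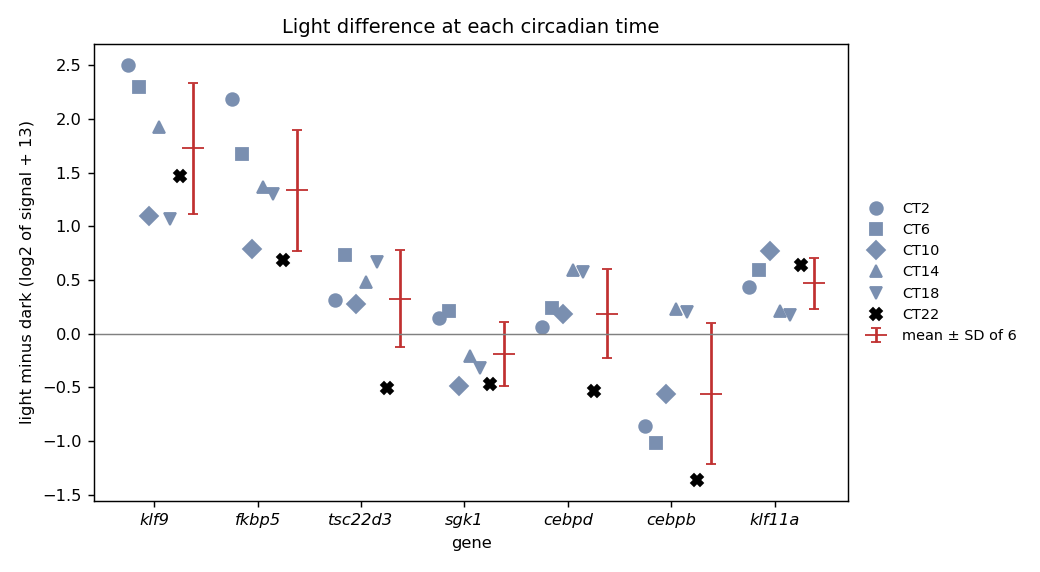
Light minus dark on the log2(signal + 13) scale for each gene, with 1 symbol for each circadian time (CT22, the only time whose arrays share a spike-in class, in black) and the mean ± SD of the 6 differences in red. Klf9, fkbp5 and klf11a lie above 0 at all times, and tsc22d3 and cebpd lie above 0 at all times but CT22.

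Whether the response to light changed over the cycle was tested in limma, since the choice of the genes rested on the mean response. For klf9 the difference was largest at CT2 and CT6 (2.50 and 2.30 log2), where the dark level was lowest, and for fkbp5 at the same times (2.18 and 1.68). The products of light with a 24 h cosine and sine passed the threshold for 0 of the 7 kept probe sets, and 0 had an unadjusted p under 0.05; among all kept probe sets 0.00% were called and 864 were under 0.05 unadjusted. Adjusted p was 0.661 for klf9, 0.769 for fkbp5 and between 0.612 and 0.839 for the others. The light difference of the subjective night minus that of the day was -0.48 ± 0.39 log2 (SE) for klf9, -0.43 ± 0.37 for fkbp5, -0.26 ± 0.27 for klf11a and 0.50 ± 0.48 for cebpb. For tsc22d3, sgk1 and cebpd it was -0.23 ± 0.35, -0.29 ± 0.28 and 0.05 ± 0.34. This contrast called 0 of the 7 (0 at an unadjusted p under 0.05) and 0.00% of all kept probe sets (296 at an unadjusted p under 0.05).

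Over the circadian cycle klf9 varied and the other 6 genes did not pass the threshold. A 24 h cosine and sine were fitted beside light over the 12 arrays, a test that does not draw on the light difference, and 1.98% of the kept probe sets were called. Klf9 had an amplitude of 0.98 ± 0.15 log2 (SE) with its fitted peak at CT16.1 (adjusted p = 0.00534 by limma), which is a 3.86-fold change from trough to peak; the median amplitude of all kept probe sets was 0.20. In both treatments its lowest levels were those of CT6 and CT2, in that order. Its highest were CT18 in the dark and CT14 in light. On that dark array brain neuron markers deviated by 1.16 log2, oligodendrocyte markers by 0.79 and skin markers by -1.29 from their means over the 12 arrays. These neuron markers were also at 0.52 on the dark array of CT14 and at -0.21 on that of CT22. On the light arrays of CT14, CT18 and CT22 they were at 0.07, -0.19 and 0.67. From CT2 to CT10 they lay between -0.49 and -0.33 in the dark and between -0.39 and -0.10 in light. Without CT18 klf9 was called, with an amplitude of 1.08 (adjusted p = 0.0139 by limma), a fit that keeps the deviations at the other times. The part of these tissues in the klf9 cycle was not tested. The dark and light arrays taken alone gave amplitudes of 1.24 ± 0.21 and 0.71 ± 0.15 with peaks at CT16.1 and CT16.2, neither called with 6 arrays (adjusted p = 0.0838 and 0.176). Klf9 was not called without CT6 (amplitude 0.80, adjusted p = 0.0674), nor with the time point as a 6-level factor (adjusted p = 0.0553) or without the light term (adjusted p = 0.379), and was called when any other single time was left out.

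Fkbp5 had its fitted peak near that of klf9, at CT16.5, with an amplitude of 0.49 ± 0.13 log2 (adjusted p = 0.129 by limma). The values for sgk1 were 0.39 ± 0.11 at CT17.6 (adjusted p = 0.185) and for klf11a 0.35 ± 0.09 at CT4.7 (adjusted p = 0.138), so the fitted peak of klf11a lay in the subjective day. Without CT18, at which both sgk1 levels were highest, the sgk1 amplitude was 0.18. Amplitudes of cebpd (0.21 ± 0.11), cebpb (0.19 ± 0.18) and tsc22d3 (0.11 ± 0.11) had adjusted p of 0.570, 0.816 and 0.819. Peak times rest on 1 cycle sampled every 4 h, and those of genes that were not called are given only as fitted.

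**Figure D4:**
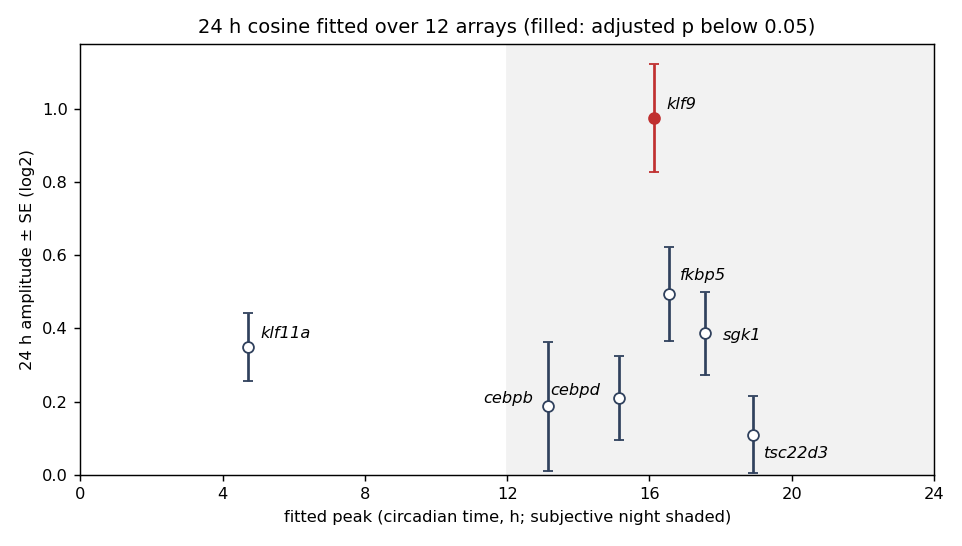
Amplitude ± SE (log2) of the 24 h cosine of each gene against its fitted peak in circadian time, from all 12 arrays with light in the model; the filled point passed the adjusted threshold and open points did not. Klf9 stands at 0.98 and CT16.1, and klf11a alone has its fitted peak in the subjective day.

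Klf9 and fkbp5 had the most similar profiles of any pair among the 7 genes. Pearson's r of their log2 values was 0.96 over the 12 arrays and 0.91 within the 6 dark and within the 6 light arrays, as a description of arrays that share the light step, the time course and the spike-in classes. Among 6024 other genes with a kept probe set, fkbp5 was the gene most like klf9, and klf9 the gene most like fkbp5. Next for both came anapc4, a subunit gene of the anaphase-promoting complex (0.93 and 0.94), then hif1al for klf9 (0.89) and kcnb2a for fkbp5 (0.91). Klf11a ran opposite to both within each treatment, with r of -0.80 and -0.77 against klf9 and of -0.74 and -0.92 against fkbp5 in dark and light. Over the 12 arrays its r was 0.12 with klf9 and 0.23 with fkbp5. Sgk1 ran with klf9 (r of 0.85) and fkbp5 (0.73) over the dark arrays, with r of 0.28 and 0.46 over the light arrays. Tsc22d3 had an r of 0.73 with fkbp5 over the 12 arrays, and of 0.57 and 0.44 within dark and light. With cebpd its r was 0.71 over the 12 arrays, and 0.83 and 0.58 within dark and light. Cebpb had an r of 0.85 with cebpd and of 0.78 with tsc22d3 over the light arrays, against 0.11 and -0.13 over the dark arrays. Over the 12 arrays the genes most like tsc22d3 were cul3a (0.92), slc12a7b (0.87) and vipas39 (0.87). Those most like sgk1 were slc38a4, lmo7a and colec12 (all 0.83). Socs3a, a feedback inhibitor of cytokine signalling, was the gene most like cebpd (0.92), followed by ubxn4 (0.87) and si:dkey-238c7.16 (0.84). For cebpb the genes were mcl1a (0.89), slc25a3b (0.86) and mgst3a (0.85), and for klf11a smurf2 (0.91), leo1 (0.87) and crip2 (0.87).

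The receptor itself did not pass the threshold. Nr3c1, the glucocorticoid receptor gene, had dark signals of 906 to 1222 (median 1086) and light signals of 819 to 1192 (median 873) on its kept probe set. It was lower in light at 5 of 6 times, with a mean difference of -0.21 ± 0.15 log2 (SE, adjusted p = 0.482 by limma), and its 24 h amplitude was 0.06 ± 0.09. A further 2 probe sets of nr3c1 lay below the filter. Fkbp4, whose protein competes with FKBP5 for the receptor complex in mammals, differed by -0.11 ± 0.14 (adjusted p = 0.710) with dark signals of 745 to 1260 and light signals of 788 to 1360 (medians 1019 and 871). Of the 14 kept genes of the receptor and its chaperones and cofactors, 8 had a positive and 6 a negative light difference (median 0.02, and 0.02 over all kept probe sets), and none was called. One, nrip1b, the gene of a nuclear receptor corepressor, was called over the cycle (amplitude 0.69 ± 0.14, fitted peak CT6.3, adjusted p = 0.0448 by limma), where 1.98% of all kept probe sets were. The call was lost without CT6, CT10, CT18 or CT22 (adjusted p = 0.0518 to 0.343 by limma). It was also lost from the dark arrays alone and with a 6-level time factor (adjusted p = 0.292 and 0.300 by limma), without the filter and without the light term.

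Of the genes that make or inactivate steroids only 4 of 13 on the array passed the filter, and none was called. Hsd11b2, whose enzyme inactivates cortisol, had dark signals of 324 to 971 (median 647) and light signals of 752 to 1126 (median 919). Its light difference was 0.57 ± 0.18 log2 (SE, higher at 5 of 6 times, adjusted p = 0.130 by limma) and its amplitude 0.42 ± 0.12 (adjusted p = 0.166). Srd5a2a, a steroid 5-alpha-reductase gene, differed by 0.47 ± 0.19 (adjusted p = 0.217). The median difference of the 4 was 0.38.

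The lists of other genes, here and in the paragraphs around, were chosen with earlier results of these data known, so their counts are a description. Among 30 kept genes known to respond to glucocorticoids in other tissues, 21 mean differences were positive and 9 negative. Their median was 0.14 log2, against 0.02 for all kept probe sets. This lean was not kept at CT22, the only time at which light and dark share a spike-in class. In that pair of arrays more of the 30 genes were lower in light than higher. The share of all kept probe sets lower in light in this 1 pair is not given here. A shift of the list at CT22 therefore cannot be told from a general shift of the pair. The part of spike-in class in the lean of the means was not tested. Of the 30, 2 were called higher and 1 lower, where 1.58% and 0.731% of all kept probe sets were called. Per2, the light-induced clock repressor gene, was among those called higher (1.62 ± 0.20, SE, limma), and dusp1, a MAP kinase phosphatase gene that glucocorticoids induce in mammals, was the one called lower (-1.91 ± 0.23). Dusp1 thus lay on the other side from klf9 and fkbp5, with dark signals of 1748 to 4901 (median 2990.4) and light signals of 632 to 988 (median 866). With spike-in level in the model the differences were 1.93 for per2 and -2.30 for dusp1, with neither called (adjusted p = 0.0930 and 0.0867 by limma). With spike-in class, where only the dark array of CT22 separates class from light, they were 1.22 and -1.91, given as sizes only and not as calls. At CT22 alone they were 1.66 and -2.11. Over the cycle 2 of the 30 were called, where 1.98% of all kept probe sets were. Among them was the clock repressor gene cry2 (amplitude 0.90 ± 0.13, fitted peak CT19.6, adjusted p = 0.00400 by limma). Cry2 was not called without CT10 or CT18 (adjusted p = 0.0677 and 0.0633 by limma). It was also not called from the dark arrays alone or with a 6-level time factor (adjusted p = 0.190 and 0.0607 by limma). From the light arrays alone it was called (adjusted p = 0.0140 by limma).

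Relatives of the 7 genes gave no call for light or for time of day by limma. In the KLF family 7 further genes were kept, 3 with a positive and 4 with a negative light difference (median -0.06). Klf1, an erythroid factor, was lower in light at all 6 times (-0.58 ± 0.17, SE, adjusted p = 0.0945), beside red blood cell markers of which 1 of 6 was higher in light and whose list holds klf1. Klf6a differed by 0.35 ± 0.16 (adjusted p = 0.280), and klf2a had the largest amplitude in the family after klf9 (0.58 ± 0.18, adjusted p = 0.201). Of 8 other FKBP genes 4 were positive and 4 negative, with fkbp9 at 0.36 ± 0.19 and fkbp1b at -0.24 ± 0.13 (adjusted p = 0.354 and 0.356). Of 4 other C/EBP genes 2 were positive and 2 negative; cebpa was at -0.34 ± 0.18 (adjusted p = 0.356), cebpg at -0.17 ± 0.14 and cebp1 at 0.03 ± 0.16. Tsc22d2, the only kept relative of tsc22d3 and sgk1, was at 0.34 ± 0.14 (adjusted p = 0.237) and higher in light at 6 of 6 times.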

How the data were processed

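Per the labels' protocols, RNA of pooled glands was extracted on columns and amplified in 2 oligo(dT)-primed rounds, with biotin added in the second. The authors deposited intensities, a MAS5 signal on a linear scale for every probe set; GCOS and MAS5 are named, with no version, per the submitters' processing notes. In the deposited table the mean signal without the lowest and highest 2% was 200.035 to 200.042 on every array, and no scaling was added. The number of arrays limits the precision. The file holds no detection calls.

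The table had 15617 rows, 115 of them controls. From all signals, 13 (their 10th percentile) was added before log2, and probe sets at or above the 40th percentile of mean log2 (6.16) were kept, 9301 in all. Tests used limma 3.58.1 (R 4.3.3), with an intensity trend in the empirical Bayes step, two-sided and Benjamini-Hochberg adjusted over kept probe sets with a threshold of 0.05. Light against dark had time point as a block (5 residual degrees of freedom), so the 6 times act as replicates and p-values measure spread over times and pools. Time of day was an F-test of a 24 h cosine and sine beside light. Light by time was tested on the products, and night against day on light by night within the block. For other genes 1 probe set, that of highest mean, stood for a gene. The labels' time points give the pairing. Across genes, same-time arrays deviated from their group means with a correlation of -0.05 to 0.30. Arrays of different times gave -0.37 to 0.37, a range that contains the same-time values. The tests were also tried on simulated data with independent normal noise. That simulation held no spike-in classes or tissue differences, so it does not show how the tests perform where these are present.

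The 7 genes, gene lists and tests were chosen with earlier results of these data known. Named were the 7 genes, nr3c1, fkbp4, the called genes of each list (except 1, not reported here) or else those with the smallest p, and the 3 genes most like each of the 7 by Pearson's r over the 12 arrays. The receptor gene nr3c2 was not analysed here. Marker lists covered pineal, muscle, skin, red blood cells, leukocytes, brain neurons (3 of 10 kept genes higher in light), oligodendrocytes (3 of 6) and glia (4 of 7). The alternatives tried are given at the end.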

Additional observations from a re-analysis of the deposited data

Results flagged for a closer look

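A pair of values stood far from the rest of their group of 6 by Dixon's ratio, the gap to the nearest value over the whole range, taken against its 95% critical value. Chance alone marks about 1 in 20 groups. The light array of CT18 was the highest of the 6 light arrays for sgk1 (ratio 0.748), with a signal of 1032 against at most 643 on the others; the dark array of CT18 was the highest dark array as well, at 1296. The light difference of tsc22d3 at CT22 was the lowest of the 6 (ratio 0.631), at -0.51 log2 against 0.27 to 0.73 at the other times.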

How the results depend on the processing

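The choices compared were the added value (1 or 50), the filter (none or the 60th percentile), quantile normalization, each time left out, the light term or time block, and the spike-in level or class. The klf9 light difference stayed between 1.33 and 1.86 log2 in all 12 alternatives. That of fkbp5 fell to 0.65 with spike-in class and to 0.68 in the CT22 pair alone. It was 1.21 with spike-in level and lay between 1.16 and 1.46 with any single time left out. The tsc22d3 and cebpd differences turned negative with spike-in level, with spike-in class and in the CT22 pair. These alternatives are not independent, since the class fit and the CT22 pair both rest on the dark array of CT22. In the fit with spike-in level, CT22 is the pair with the nearest levels (10.62 in the dark and 10.59 in light). The klf9 amplitude was 0.80 to 1.08 with single times left out and was called in 11 of 16 alternatives; it was not called without the light term (0.98), from the dark (1.24) or light (0.71) arrays alone, without CT6 or with a 6-level time factor (0.96, from the range over times). No other of the 7 genes was called for time of day, or any for light by time, under these alternatives. Over all probe sets, light against dark called 215 with time as a paired block and 127 with no replicate block, 8 with spike-in level, 3 with spike-in class and 71 to 351 with single times left out. Time of day called 184, and 101 without the light term, 20 from dark and 23 from light arrays alone, 67 with a 6-level factor, 122 without the intensity trend and 48 to 121 with single times left out. Light by time and night against day called 0 to 1 with single times left out, the 1 without CT22. The causes of these changes were not tested. Fits that leave some arrays out also have fewer of them.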
